A study of Mus musculus with 8 samples.

Results

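The Notch receptors, their ligands and their nuclear effectors were examined in aged mouse muscle stem cells (MuSCs) that were given nicotinamide (NAM) together with pyridoxine (PN), NAM/PN, in culture. The genes were Notch1, Notch2, Notch3, Jag1, Jag2, Dll1, Hes1, Hey1, Heyl and Rbpj, 10 genes chosen by name from the pathway among the 55487 genes in the counts. Each of the 10 was found once by its Ensembl identifier, and all 10 passed the filter on low counts that left 12060 genes for testing. MuSCs sorted by FACS from wild-type mice labelled Old were seeded in growth medium with NAM/PN at 1 mM, for which no separate NAM and PN values were given, or with 1% DMSO as vehicle, and their RNA was taken after 72 hours. Whether the NAM/PN wells also held DMSO was not given in the sources used here, and if they did not, NAM/PN and the absence of DMSO cannot be told apart. The 8 mice, all male, were combined into 4 pools of 2 mice, and each pool gave 1 vehicle and 1 NAM/PN library, so that a vehicle and a NAM/PN library of equal number share their mice. The animals behind a pool cannot be told apart and no young or freshly sorted MuSCs were compared here, so that all values are those of cells after 72 hours in growth medium. The comparison asked whether NAM/PN changed the expression of Notch pathway genes in aged MuSCs.

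Notch signaling passes between cells that touch. A ligand of the Jagged or Delta-like family on 1 cell pulls on a Notch receptor of its neighbor, proteases then cut the receptor, and the freed intracellular domain enters the nucleus, where it joins the DNA-binding protein RBPJ and switches on genes of the HES and HEY families. These encode basic helix-loop-helix repressors. In muscle, Notch activity is known to keep MuSCs undifferentiated, since HES1, HEY1 and HEYL hold back the myogenic program that MYOD and MYOGENIN drive.

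HES proteins recruit Groucho/TLE corepressors through a short motif near their C-terminus, WRPW, in whose place HEY1 carries the variant YRPW. The last 39 coding bases before the stop codon are shown because they set apart the 3 effectors whose levels are described below and Hes6, a HES gene outside the 10. They were read from the transcripts of GENCODE mouse release M21 on GRCm38, and capitals mark the 4 codons that spell either motif in frame.
Hes1: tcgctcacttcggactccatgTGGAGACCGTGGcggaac
Hes6: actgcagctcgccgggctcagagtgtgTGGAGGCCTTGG
Hey1: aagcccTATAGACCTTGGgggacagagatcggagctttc
Heyl: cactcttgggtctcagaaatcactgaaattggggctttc
In Hes1 the motif was followed by 2 codons, in Hes6 by 0 and in Hey1 by 7. Neither motif was spelled in these 39 bases of Heyl, although the last 15 bases of Heyl and Hey1 shared 12 letters.

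RBPJ is known to bind DNA around the core TGGGAA. This core was searched on both strands in RefSeq promoter windows of GRCm38.p6 that run from 250 bases before to 50 bases after an annotated start. Such a start can lie inside the span that GENCODE gives the gene, as for Rbpj (chromosome 5 from 53466152 to 53657362, plus strand) and Notch1. Windows were at hand for 7 of the 10 genes (Notch1, Notch2, Notch3, Jag1, Jag2, Dll1 and Rbpj), 9 windows in all. Only the 2 overlapping windows of Rbpj itself held the core, against 25.6% of all 32851 windows, and the longer form GTGGGAA was in 0 of the 9 windows and in 6.38% of all windows. The Rbpj window at chr5:53590096-53590395, plus strand, is shown as the promoter of the gene that encodes the binding protein, and capitals mark TGGGAA or its reverse complement.
Rbpj: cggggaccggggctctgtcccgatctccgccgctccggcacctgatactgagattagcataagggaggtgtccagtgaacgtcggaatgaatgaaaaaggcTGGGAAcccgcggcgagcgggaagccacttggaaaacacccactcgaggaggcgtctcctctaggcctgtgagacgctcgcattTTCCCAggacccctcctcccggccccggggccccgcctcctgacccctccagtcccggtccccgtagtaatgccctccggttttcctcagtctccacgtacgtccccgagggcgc
The first match lay 149 bases before the start used for this window, on the plus strand (53590197 to 53590202), and the second 65 bases before it on the minus strand (53590281 to 53590286). Matching letters do not show that RBPJ binds there.

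Vehicle library 3 and NAM/PN library 4 stood apart from the other 6. Across genes, their counts differed from those of their own group by 70.3 to 90.5 and by 70.8 to 83.6 (chi-square divided by its degrees of freedom), where the other pairs of replicates gave 22.3 to 29.5. Vehicle library 3 had 18.7% of its counts on 1 ribosomal RNA gene, and NAM/PN library 4, the deepest, had the fewest genes detected (12483) and the lowest shares of that gene (5.22%) and of mitochondrial genes (2.56%). Without either or both of these libraries, the count of called genes among the 10, given next, was the same.

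None of the 10 genes passed the threshold between vehicle and NAM/PN. The test was edgeR's quasi-likelihood test, adjusted by Benjamini-Hochberg over the 12060 tested genes with a threshold of 0.05, which 1.28% of those genes passed, 0.282% as higher and 0.995% as lower. Among the 10 genes, 0 were also called with the pool as a replicate block, which called 1.29% of tested genes, with DESeq2 and with voom. At an unadjusted p under 0.05, a threshold that 9.28% of tested genes passed, 1 of the 10 genes was found in edgeR and in DESeq2, Dll1, with a negative log2 fold change, and voom had 2, Hey1 and Heyl. The vehicle and NAM/PN libraries overlapped for all 10 genes, while they did not for 7.21% of tested genes. Of the log2 fold changes, 5 were positive and 5 negative, with a median of -0.22 against -0.0022 over all tested genes. Fewer cells that express a gene and less RNA per cell cannot be told apart in these bulk samples.

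**Figure D1:**
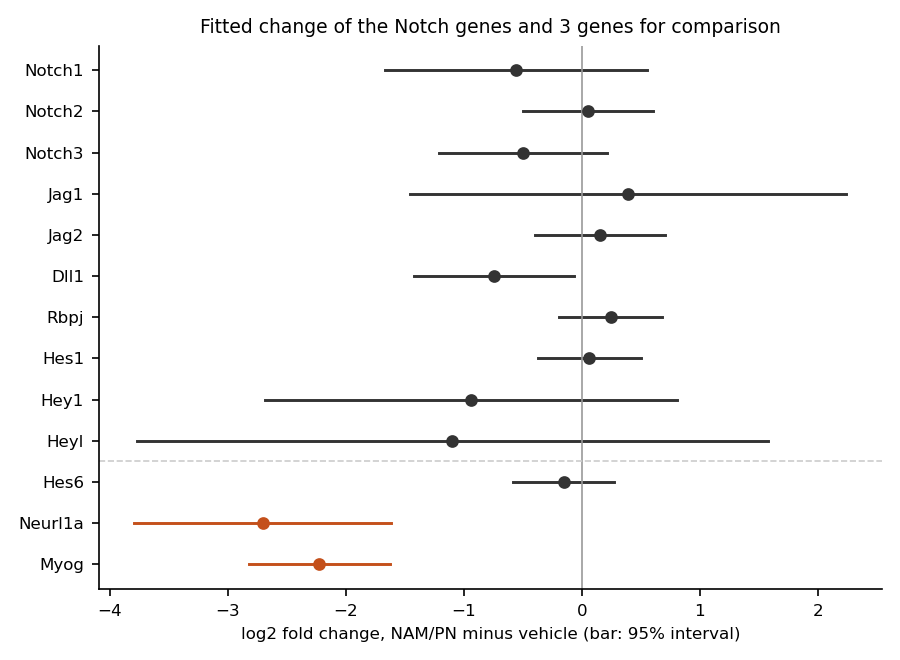
Fitted log2 fold change of NAM/PN over vehicle (x axis) with its 95% interval for the 10 Notch genes above the dashed line and for Hes6, Neurl1a and Myog below it; orange marks genes with an adjusted p under 0.05. The intervals of 9 of the 10 Notch genes cross 0 and that of Dll1 ends at -0.070, while Neurl1a at -2.70 and Myog at -2.22 lie well below 0.

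Levels are given as CPM, a gene's count divided by the normalized size of its library in megacounts. The kit reads the 3′ end of a transcript, so counts were not divided by transcript length, and genes are ranked here on that scale. Over the 8 libraries, Hes1 had the highest level at 135 ± 25.5 CPM (SD, n = 8), above 88.7% of the tested genes. Rbpj followed at 71.1 ± 10.8 CPM, Jag2 at 64.0 ± 18.1 CPM, Notch2 at 49.6 ± 11.5 CPM, Dll1 at 37.7 ± 15.7 CPM and Notch3 at 32.1 ± 12.4 CPM. Notch1 had 17.0 ± 10.1 CPM, Jag1 10.3 ± 6.35 CPM, Hey1 10.3 ± 5.69 CPM and Heyl 5.41 ± 3.91 CPM. Hes1 lay above Rbpj in 8 of 8 libraries, by 63.9 ± 27.7 CPM, and Hey1 above Heyl in 7 of 8, by 4.85 ± 3.00 CPM. For the other 7 pairs of neighbors in this order, the mean difference was smaller than its SD over libraries, as for Dll1 over Notch3 at 5.61 ± 20.5 CPM.

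**Figure D2:**
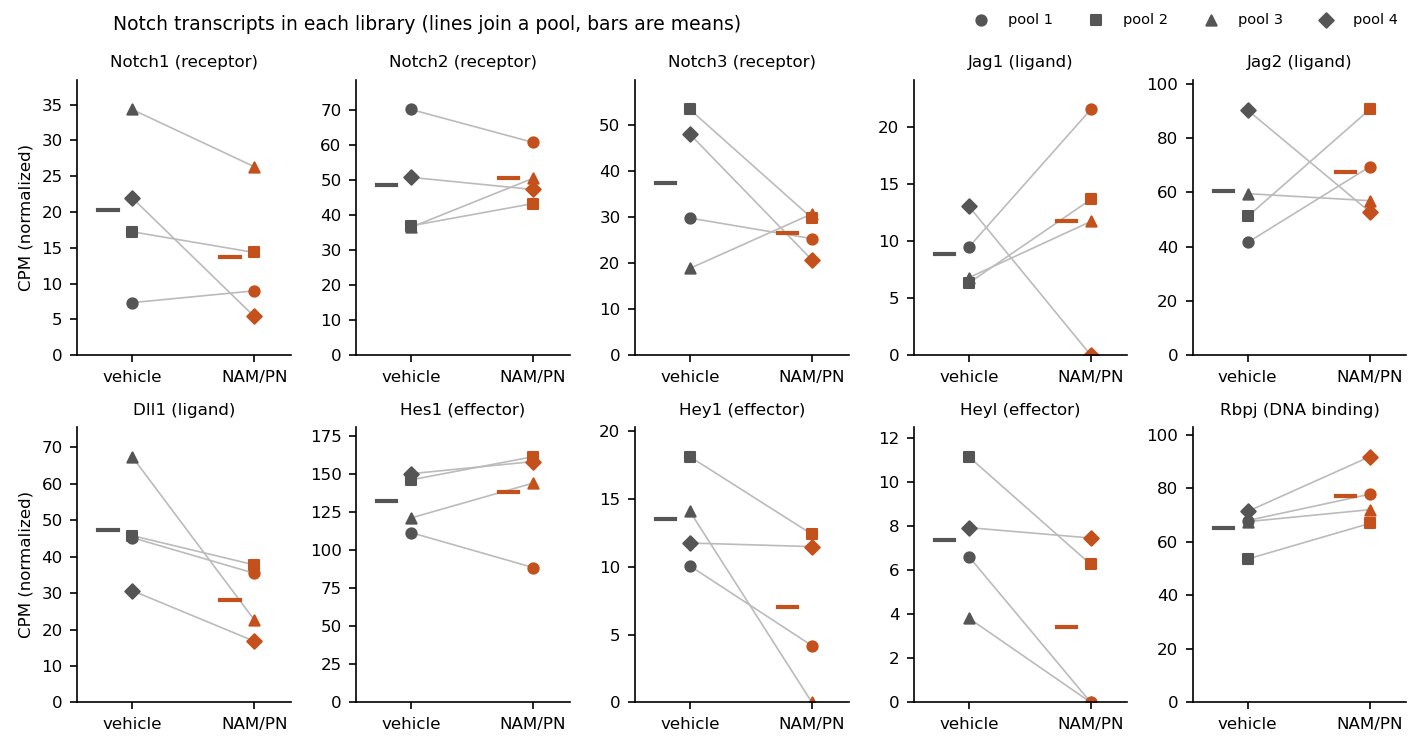
CPM of each gene (y axis, from 0, own scale per panel) in the vehicle and NAM/PN library of each pool, with marker shapes for pools, gray lines joining a pool and short bars for group means (n = 4). The groups overlap for all 10 genes. Dll1, Hey1 and Heyl are lower with NAM/PN in 4 of 4 pools and Rbpj is higher in 4 of 4. The share of all tested genes with such agreement was not computed, so these counts are not read as evidence of a change. Over all tested genes, deviations from the group means correlated within pools by only -0.0332 to 0.0313. Zeros appear with NAM/PN for Jag1, Hey1 and Heyl, so the agreement of Hey1 and Heyl rests partly on libraries with 0 counts.

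Among the receptors, Notch2 had the highest and Notch1 the lowest mean over the 8 libraries, although Notch3 was above Notch2 in vehicle library 2 and Notch1 above Notch3 in vehicle library 3. Notch1 (ENSMUSG00000026923, chromosome 2 of GRCm38 from 26457903 to 26516663, minus strand) was measured at 7.34, 17.2, 34.3 and 21.98 CPM in vehicle libraries 1 to 4 and at 8.99, 14.4, 26.3 and 5.42 CPM in NAM/PN libraries 1 to 4, the order used throughout. Pool 3 was the highest in both conditions, and the groups overlapped between 7.34 and 26.3 CPM, with 3 of 4 pools lower under NAM/PN. Over all tested genes, deviations from the group means correlated within pools by only -0.0332 to 0.0313, so such agreement in single genes is not read as a pool effect. For Notch1, a log2 fold change of -0.56 was fitted (95% interval -1.67 to 0.55, adjusted p = 0.878). The value of Notch1 depended on single libraries, from -0.18 without vehicle library 3 and -0.29 without NAM/PN library 4 to -1.08 without NAM/PN library 3.

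Notch2 (ENSMUSG00000027878, chromosome 3 from 98013527 to 98150361, plus strand) was at 70.2, 37.0, 36.6 and 50.8 CPM under vehicle and at 60.8, 43.3, 50.6 and 47.4 CPM under NAM/PN. Pool 1 was the highest in both conditions, and every NAM/PN library lay within the range of the vehicle libraries. Its log2 fold change was 0.054 (95% interval -0.50 to 0.61, adjusted p = 0.988), a range of 0.708-fold to 1.52-fold.

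Notch3 (ENSMUSG00000038146, chromosome 17 from 32120820 to 32166852, minus strand), whose product is also abundant in mural cells of blood vessels, was at 29.8, 53.5, 18.9 and 48.1 CPM under vehicle and at 25.4, 29.8, 30.8 and 20.7 CPM under NAM/PN. Vehicle libraries 2 and 4 stood above the other 6, and vehicle library 3 had the lowest value of all. Its log2 fold change was -0.50 (95% interval -1.21 to 0.22, adjusted p = 0.779). With libraries or pools left out, the value of Notch3 lay between -0.25 (without pool 4) and -0.80 (without pool 3), with -0.28 without vehicle library 2, and the adjusted p was at least 0.423. The same vehicle libraries 2 and 4 had the highest levels of Myog, at 1042 and 1428 CPM against 679.7 and 566 CPM in vehicle libraries 1 and 3.

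The ligand with the highest mean over the 8 libraries was Jag2 (ENSMUSG00000002799, chromosome 12 from 112907819 to 112929776, minus strand). Jag2 was at 41.6, 51.1, 59.5 and 90.3 CPM under vehicle and at 69.4, 90.6, 57.0 and 52.9 CPM under NAM/PN. In counts, Jag2 stood to Dll1 as 0.919, 1.117, 0.883 and 2.94 under vehicle and as 1.96, 2.40, 2.51 and 3.14 under NAM/PN, so that Dll1 was the higher of the pair in vehicle libraries 1 and 3. Jag2 was higher with NAM/PN in pools 1 and 2 and lower in pools 3 and 4, with a log2 fold change of 0.15 (95% interval -0.40 to 0.70, adjusted p = 0.959).

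Dll1 (ENSMUSG00000014773, chromosome 17 from 15367354 to 15376872, minus strand) encodes the Delta-like ligand that myogenic cells present to their neighbors. Dll1 was at 45.2, 45.8, 67.4 and 30.7 CPM under vehicle and at 35.5, 37.8, 22.7 and 16.8 CPM under NAM/PN. Each NAM/PN library was below the vehicle library of its pool, and the groups overlapped because vehicle library 4 lay below NAM/PN libraries 1 and 2. Its mean was 47.3 ± 15.1 CPM under vehicle and 28.2 ± 10.1 CPM under NAM/PN (SD, 4 libraries each). For Dll1 the log2 fold change was -0.75 (95% interval -1.43 to -0.070), with an unadjusted p of 0.0324 and an adjusted p of 0.463 in edgeR's quasi-likelihood test, and an adjusted p of 0.414 with the pool as a block. The difference therefore did not pass the adjustment over all tested genes. Dll1 was at -0.44 without both libraries of pool 3 (adjusted p = 0.823) and at -0.46 with voom (adjusted p = 0.547).

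Jag1 (ENSMUSG00000027276, chromosome 2 from 137081456 to 137116644, minus strand) was near the lower end of the measured range, at 9.47, 6.33, 6.79 and 13.1 CPM under vehicle and at 21.5, 13.7, 11.7 and 0 CPM under NAM/PN. NAM/PN library 4 had 0 counts of Jag1 and was the deepest library, while the other 7 libraries had 51 to 175 counts. Jag1 was higher with NAM/PN in the other 3 pools. Its log2 fold change was 0.39 with all libraries (95% interval -1.46 to 2.24, adjusted p = 0.970) and 0.81 without NAM/PN library 4 (adjusted p = 0.726). The mean log2 CPM of Jag1, which weighs that 0 more, was 3.14 under vehicle and 2.44 under NAM/PN, the opposite direction.

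Rbpj (ENSMUSG00000039191, chromosome 5 from 53466152 to 53657362, plus strand) encodes the protein through which all Notch receptors act on DNA. Rbpj was at 68.0, 53.6, 67.6 and 71.4 CPM under vehicle and at 77.8, 66.9, 72.0 and 91.8 CPM under NAM/PN. The NAM/PN library was the higher in every pool, although NAM/PN library 2 lay below 3 of the vehicle libraries. A log2 fold change of 0.24 was fitted for Rbpj (95% interval -0.19 to 0.68, adjusted p = 0.853), a range of 0.875-fold to 1.60-fold.

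Among the effectors, Hes1 (ENSMUSG00000022528, chromosome 16 from 30064384 to 30067796, plus strand) was the most precisely measured. Hes1 was at 111, 146, 121 and 150.1 CPM under vehicle and at 88.5, 161, 144 and 158 CPM under NAM/PN. The lowest library of both groups was that of pool 1, and 3 of the 4 pools were higher with NAM/PN. Its log2 fold change was 0.062 (95% interval -0.37 to 0.50, adjusted p = 0.985), so that these libraries leave room for changes of Hes1 between 0.772-fold and 1.41-fold.

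Hey1 (ENSMUSG00000040289, chromosome 3 from 8663359 to 8667256, minus strand) was at 10.1, 18.1, 14.1 and 11.8 CPM under vehicle and at 4.19, 12.4, 0 and 11.5 CPM under NAM/PN. All 4 NAM/PN libraries were below the vehicle library of their pool, in pool 4 by the least. In counts, NAM/PN library 3 had 0 reads of Hey1 and vehicle library 3 had 114. For Hey1 the log2 fold change of -0.94 had a 95% interval from -2.69 to 0.81 (adjusted p = 0.865). It was -1.53 with the pool as a block (adjusted p = 0.740) and -0.53 without NAM/PN library 3 (adjusted p = 0.909).

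Heyl (ENSMUSG00000032744, chromosome 4 from 123233556 to 123249875, plus strand) was the lowest of the 10 genes. Heyl was at 6.63, 11.2, 3.83 and 7.94 CPM under vehicle, and at 6.27 and 7.47 CPM in NAM/PN libraries 2 and 4. NAM/PN libraries 1 and 3 had 0 counts of Heyl, where 3 counts, taken as the floor of detection, would be 0.369 and 0.457 CPM. A log2 fold change of -1.10 was fitted (95% interval -3.77 to 1.58, adjusted p = 0.914), and changes of Heyl between 0.0733-fold and 2.98-fold were not separable in these libraries. With the pool as a block, the log2 fold change of Heyl was -3.02 (adjusted p = 0.690).

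The precision followed the level. The biological coefficient of variation in edgeR, the spread between libraries beyond counting error as a share of the mean, was 0.221 for Hes1 and 0.222 for Rbpj, lower than for most tested genes. It was 0.525 for Notch1, 0.776 for Hey1, 0.832 for Jag1 and 1.16 for Heyl. Among all tested genes, the median half-width of the 95% interval was 2.69 on the log2 scale under 10 CPM and 0.397 at 100 CPM or more. Libraries held between 6472484 and 10163101 counts, of which the 10 genes together took between 0.0390% and 0.0486%. Floors cover counting error only, since reads were not collapsed to molecules here.

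Within each role, the share of counts on each gene was also taken per library, which does not depend on scaling between libraries. Of the summed counts of the 3 effectors, Hes1 took 87.0%, 83.3%, 87.1% and 88.4% with vehicle and 95.5%, 89.6%, 100% and 89.3% with NAM/PN. Every NAM/PN library thus had a higher share of Hes1 than every vehicle library, and the share of Hey1 was at most 6.89% with NAM/PN and at least 6.92% with vehicle. These are 2 of 9 shares, they are tied to each other, and no test was made of them. Of the summed counts of the 3 ligands, Dll1 took 47.0%, 44.4%, 50.4% and 22.9% with vehicle and 28.04%, 26.6%, 24.8% and 24.1% with NAM/PN. Vehicle library 4 was at the level of the NAM/PN libraries, and the other 3 vehicle libraries were above them. Jag2 took 43.2% to 67.4% of the ligand counts under vehicle and 54.9% to 75.9% under NAM/PN. Notch2 took 34.3% to 65.4% of the receptor counts under vehicle and 47.0% to 64.4% under NAM/PN, and Notch1 ranged more widely with vehicle, from 6.84% to 38.2%, than with NAM/PN, from 7.37% to 24.5%.

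**Figure D3:**
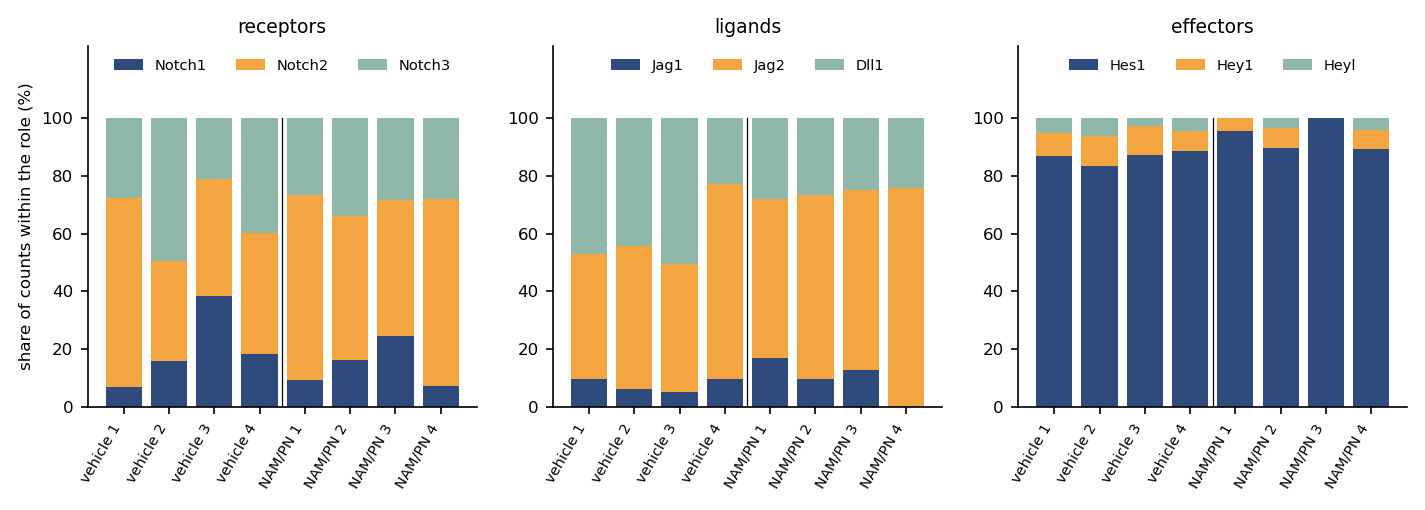
Share of the counts within receptors, ligands and effectors (y axis, %) on each gene in the 4 vehicle and 4 NAM/PN libraries (x axis, numbered by pool). Hes1 takes 83.3% to 88.4% of the effector counts under vehicle and 89.3% to 100% under NAM/PN, and Dll1 takes at least 44.4% of the ligand counts in vehicle libraries 1 to 3 and at most 28.04% in the other 5 libraries.

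The remaining genes of the pathway were taken from 7 lists with 75 genes, of which 58 were tested. Of the 58, 1 was called, Neurl1a, which was lower with NAM/PN. The libraries of the groups did not overlap for 7 of the 58 genes as lower and 2 as higher, where 4.42% and 2.79% of all tested genes did not. At an unadjusted p under 0.05, 6 genes were lower and 2 higher, where 5.32% and 3.96% of all tested genes were, and the log2 fold change was negative for 40 of the 58 genes, with a median of -0.16, where it was negative for 6056 of all 12060 tested genes. The lists, like the 10 genes, were drawn up with earlier results of these data known.

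Neurl1a (ENSMUSG00000006435, chromosome 19 from 47178820 to 47259441, plus strand) encodes a ubiquitin ligase of the Neuralized family, which acts on Notch ligands at the cell surface. Neurl1a was at 11.4, 42.7, 28.3 and 41.1 CPM under vehicle and at 2.71, 8.50, 2.74 and 4.95 CPM under NAM/PN. All NAM/PN libraries lay below all vehicle libraries, which held for 4.42% of the tested genes in this direction. It fell by 2.70 on the log2 scale (standard error 0.52), with a Benjamini-Hochberg adjusted p of 0.00882 in edgeR's quasi-likelihood test and of 0.00605 in the blocked fit. The fall lost its call with voom (log2 fold change -2.77, adjusted p = 0.116) and without vehicle library 2 (-2.51, adjusted p = 0.0776) or vehicle library 4 (-2.55, adjusted p = 0.0718), and without both libraries of pool 2, 3 or 4 (adjusted p = 0.0725, 0.0596 and 0.110). Neurl1b, a related gene, was at 20.8 ± 12.6 CPM under vehicle and 18.1 ± 2.18 CPM under NAM/PN (SD, 4 libraries each), and its log2 fold change was -0.20 (adjusted p = 0.968).

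In the list of other receptors and ligands, 2 of 6 genes were tested. Dll3 and Dll4 had 0 counts in all 8 libraries, which allows levels of up to 0.295 to 0.464 CPM of the library total, and Notch4 had 14 counts in vehicle library 2 and 0 in the other 7. Dner, Dlk2, Neurl1b, Mib1, Ctbp1, Cir1, Col5a1, Cd34 and Calcr are named after their values were seen. For Dner, which encodes a membrane protein with EGF-like repeats, the log2 fold change was -2.50 (adjusted p = 0.465), and for Dlk2, a relative of the Delta ligands, it was -1.06 (adjusted p = 0.496). Among genes of glycosylation and ligand trafficking, 8 of 9 were tested and 1, Neurl1a, was called. Mib1, the ubiquitin ligase that drives ligand endocytosis, was at 41.3, 52.0, 52.2 and 33.95 CPM under vehicle and at 76.6, 63.8, 57.0 and 62.7 CPM under NAM/PN. The groups of Mib1 did not overlap, as for 2.79% of tested genes in the higher direction, and its log2 fold change was 0.53 with an adjusted p of 0.470.

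Receptor proteolysis showed no call among 9 tested genes, the median log2 fold change being -0.12, and this list held Adam10, Adam17 and the subunits of γ-secretase. Of the nuclear cofactors of RBPJ, 22 of 22 were tested and 0 were called, with a median of -0.12, and 14 of the 22 values were negative. Ctbp1, a corepressor, had a log2 fold change of 0.40 (adjusted p = 0.477), and Cir1, which links RBPJ to histone deacetylases, had -1.72 (adjusted p = 0.338). For receptor turnover and inhibitors, 8 of 11 genes were tested and 0 were called (median -0.14). Nrarp, a feedback inhibitor that Notch induces, was not tested, with 6, 0, 8 and 9 counts under vehicle and 0, 0, 0 and 61 counts under NAM/PN.

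Hes6 was the only tested gene of the 7 other HES and HEY genes, and Hes5 and Hey2 had 0 counts in all 8 libraries. Hes6, whose product is known to oppose HES1 and to favor myogenic differentiation, was at 856, 1010, 1067 and 1311 CPM under vehicle and at 698, 907, 759 and 1446 CPM under NAM/PN. These levels exceeded those of Hes1 by between 5.27 and 9.15 times within a library. NAM/PN library 4 was above all vehicle libraries and the groups overlapped. For Hes6 the log2 fold change was -0.16 (95% interval -0.58 to 0.27, adjusted p = 0.932). Hes6 was lower with NAM/PN in 3 of 4 pools, and its value was -0.43 without NAM/PN library 4 (adjusted p = 0.281) and -0.033 without NAM/PN library 1 (adjusted p = 0.997).

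Genes linked to Notch in MuSCs, among them Pax7, collagens and the calcitonin receptor gene Calcr, had negative log2 fold changes for 8 of 8 tested genes of 10, and 0 were called. Their median was -0.49, against 6056 negative values among all 12060 tested genes and a median of -0.0022. Pax7, Cd34, Vcam1 and Megf10 of this list are also among the markers of MuSCs and myoblasts described below, of which 9 of 10 were negative. Col5a1, a collagen V chain, was at 40.5, 40.4, 41.6 and 25.03 CPM under vehicle and at 23.4, 23.97, 19.2 and 11.4 CPM under NAM/PN. The groups of Col5a1 did not overlap, as for 4.42% of tested genes in this direction, the lowest vehicle library being number 4, and its log2 fold change was -0.92 (adjusted p = 0.299). Cd34, a surface antigen used to sort MuSCs, was at 107, 114, 120.4 and 74.0 CPM under vehicle and at 63.3, 45.4, 40.7 and 103 CPM under NAM/PN. NAM/PN library 4 was above the other 3, and the log2 fold change of Cd34 was -0.71 (adjusted p = 0.331) with it and -1.06 (adjusted p = 0.0266) without it. Cd34 was also called without both libraries of pool 4 (-1.19, adjusted p = 0.0281), where Neurl1a was not, and without vehicle library 3 and NAM/PN library 4 together (-0.99, adjusted p = 0.0348). Calcr had 12 counts in 1 vehicle library and 0 in the others.

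**Figure D4:**
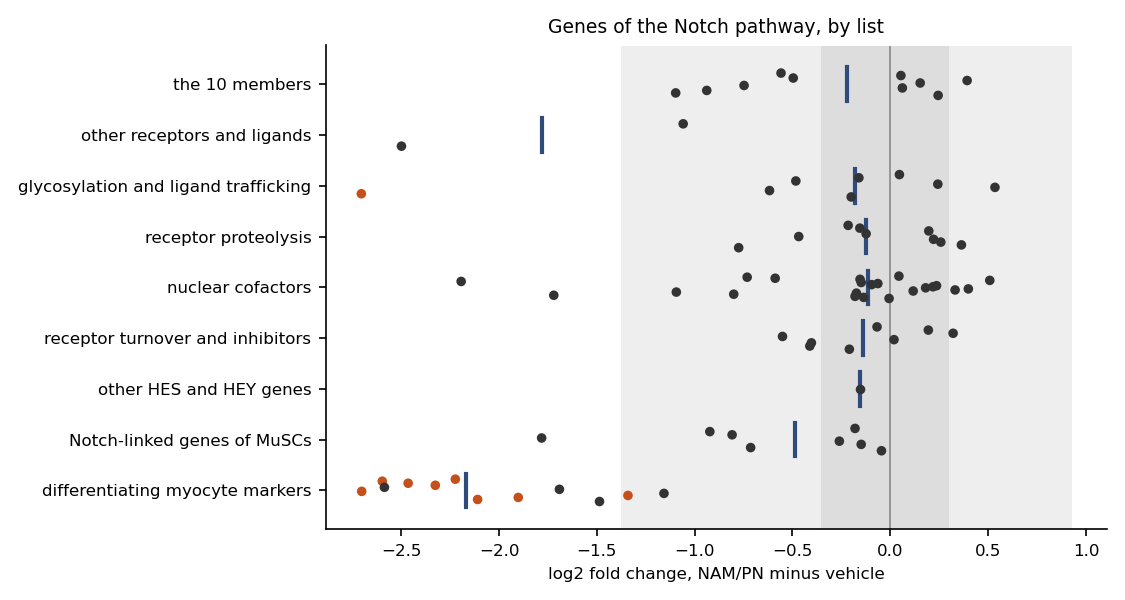
Log2 fold change of NAM/PN over vehicle (x axis) of each tested gene (points) in the 10 Notch genes, the 7 other pathway lists and the markers of differentiating myocytes, with orange for an adjusted p under 0.05, blue bars for list medians and gray bands for the 25th to 75th and the 5th to 95th percentile of all tested genes. In the pathway lists 1 point, Neurl1a at -2.70, is orange, and in the myocyte markers 8 points are.

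The labelled cell type was checked against its markers. All 10 markers of MuSCs and myoblasts were tested and 0 were called, among them Pax7 at 196 ± 36.2 and 173 ± 50.3 CPM and Myod1 at 1366 ± 175 and 1201 ± 134 CPM under vehicle and NAM/PN (SD, 4 libraries each). Of these 10 markers, 9 had a negative log2 fold change, with a median of -0.18. At an unadjusted p under 0.05 in edgeR's quasi-likelihood test, 2 were lower, where 5.32% of all tested genes were. The 10 markers summed to 3123 to 3556 CPM under vehicle and to 2516 to 3114 CPM under NAM/PN. Of 12 markers of differentiating myocytes, 8 were called and all 8 fell (Myog, Mymk, Mymx, Myh3, Acta1, Tnnt2, Tnnt3 and Mef2c), 10 with the pool as a block, and the 12 summed to 1917 to 3769 CPM under vehicle and to 505 to 1303 CPM under NAM/PN. The calls of Myog and Myh3 held under all 22 alternatives, that of Tnnt2 was lost in 8 (among them without vehicle library 2 or 4 or NAM/PN library 1 or 3) and that of Mef2c in 6 (among them without vehicle library 2 or 3 or NAM/PN library 1). Mymx and Tnnt3 lost theirs in 2 alternatives each and Mymk and Acta1 in 1 each, and the adjusted p of these 6 genes reached at most 0.131. The part of the myocyte markers in the values of the Notch genes was not tested.

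Markers of other cells that use Notch were mostly sparse, with a few at higher levels. Of 10 endothelial markers, 4 had 0 counts in all libraries, 1 was tested and 0 were called. That one was Egfl7, at 3.21 to 14.7 CPM under vehicle and 9.85 to 29.5 CPM under NAM/PN, and it made up most of the list's sum of 3.46 to 21.8 and 9.85 to 29.6 CPM. Pecam1 had 6, 0, 0 and 24 counts under vehicle and 0, 18, 0 and 0 under NAM/PN, and Cdh5 had 19 counts in vehicle library 4, 25 in NAM/PN library 2 and 0 in the others. Of 9 mural markers, 3 were tested and 1 was called, Acta2, a smooth muscle actin that cultured myogenic cells also express, which fell (log2 fold change -2.38, adjusted p = 0.000147). The mural list summed to 260.5 to 570.1 CPM under vehicle and 78.3 to 135 CPM under NAM/PN, for the most part through Acta2. Cspg4 was at 10.7, 28.5, 45.6 and 23.7 CPM under vehicle and at 22.9, 21.04, 18.3 and 12.7 CPM under NAM/PN, and its highest library, vehicle 3, was the lowest in Notch3. Rgs5 had 10 counts in vehicle library 2 and 22 in vehicle library 4, Pdgfrb had 27 and Kcnj8 18 in vehicle library 2, and all 3 had 0 elsewhere. Abcc9 had 37 counts in vehicle library 2, 21 in vehicle library 4, 21 in NAM/PN library 2 and 0 elsewhere, Mcam had 0 to 86 counts with 0 in vehicle library 3 and NAM/PN library 4, and Myh11 and Higd1b had 0 in all libraries. Vehicle libraries 2 and 4 had the most Notch3, and the part of mural RNA in its values was not tested. The study's methods describe, for young mice, a MuSC gate negative for CD31, CD11b, CD45 and Sca1 and positive for CD34 and integrin α7. How far such a gate kept mural cells out of these libraries was not tested. Egfl7, Cspg4, Kcnj8, Abcc9, Mcam, Myh11, Higd1b, Smoc2, Cd68, Ly6a and Ngfr are named after their values were seen. Of 10 fibro-adipogenic markers 5 had 0 counts in all libraries, Pdgfra among them, while Smoc2 had 4 to 94 counts and Ly6a, which encodes Sca1, had 37, 17 and 42 counts in vehicle libraries 1 and 4 and NAM/PN library 2. Of 8 immune markers 7 had 0 counts in all libraries, Ptprc among them, and Cd68 had 9 to 64 counts. Of 6 Schwann cell markers 3 had 0 counts in all libraries, and Ngfr had 35 to 302. None of the markers of these 3 cell types was called.

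Some annotated genes overlap exons of the members. Gm17276, antisense to Notch3 and reaching its 3′ end, had 37 counts over the 8 libraries against 2122 for Notch3, and 0610009E02Rik, antisense to Notch1, had 13 against 1088. Gm42820, on the strand of Notch2, had 71 against 3298, and A930024N18Rik, antisense to Dll1, was not analysed here. A strand setting for the counting was not given in the sources used here, so reads of such partners may not have been told apart.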

How the data were processed

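Raw counts of reads per gene were deposited by the authors for 8 libraries, without normalization. According to the study's methods, QuantSeq 3′ libraries were aligned to GRCm38 with RNASTAR and counted with htseq-count, which the submitters' processing notes give as HTSeq 2.16.2. Per the labels, 4 libraries were vehicle and 4 NAM/PN, and the pool number pairs them by shared mice. Deviations from the group means correlated between -0.0332 and 0.0313 within pools. Every pair of replicates differed by more than counting noise.

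Genes were filtered with filterByExpr (minimum count 10, minimum total 15) and scaled by TMM, and vehicle and NAM/PN were compared in edgeR 4.0.16 (R 4.3.3) by the quasi-likelihood test, with Benjamini-Hochberg adjustment across 12060 genes, without a block. Intervals at 95% came from the fit's standard errors and were not adjusted. Log2 CPM used a prior count of 2. DESeq2 1.42.0, limma 3.58.1 (voom), a replicate block, other scaling and filters, thinning and leaving out libraries were alternatives. The scripts were tested on simulated data. Figures were drawn with matplotlib 3.10.9.

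The 10 genes and all lists were chosen with earlier results of these data known. By rule, the text names the 10 genes, called pathway genes, Notch4, Dll3, Dll4, Hes6, Hes5, Hey2, Nrarp, called markers and Pax7, Myod1, Myog, Pecam1, Cdh5, Pdgfrb, Rgs5, Pdgfra and Ptprc. Other genes are named after their values were seen. Positions and transcripts came from GENCODE M21, in which 55141 of the 55487 identifiers were found.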

Additional observations from a re-analysis of the deposited data

Results flagged for a closer look

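In 3 of 42 groups of 4 libraries, 1 library stood apart from the others by Dixon's test, where chance gives about 2.1. Col5a1 was at 25.03 CPM in vehicle library 4 and at 40.4 to 41.6 CPM in the other vehicle libraries. Pax7 was at 97.3 CPM in NAM/PN library 4, which also had 0 counts of Jag1, and at 196 to 199.9 CPM in the other NAM/PN libraries. A ribosomal RNA gene, CT010467.1, took 18.7% of the counts of vehicle library 3, which had the highest Dll1 and Notch1 and the lowest Notch3 of the vehicle libraries, and 9.09% to 9.59% of the counts of the others. The part of these libraries in the values of the Notch genes was not tested beyond leaving them out.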

How the results depend on the processing

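Of the 10 Notch genes, 0 were called under all 22 alternatives. The count of all called genes was 154 (34 higher, 120 lower), 156 with the replicate block, 289 with DESeq2 (75 higher, 214 lower), 366 with no filter on low counts (135 higher, 231 lower), 232 with voom (66 higher, 166 lower), 244 at a threshold of 0.10, 42 to 177 when single libraries or pools were left out (lowest without pool 2, highest without NAM/PN library 4), and 236 without vehicle library 3 and NAM/PN library 4 together, a choice made after seeing the data. Of the 58 pathway genes, 1 was called, 0 with voom, 0 to 2 when libraries or pools were left out, and 2 without both libraries. The replicate block changed no call among the 10 Notch genes or the pathway genes. Directions of some uncalled log2 fold changes turned. Without vehicle library 3 and NAM/PN library 4, Notch1 was at 0.082, Notch2 at -0.037 and Hes1 at -0.060, and with voom Jag1 was at -0.42 and Hes1 at -0.049. With libraries or pools left out, Notch1 ran from -1.08 to -0.18, Notch2 from -0.066 to 0.28, Jag1 from -0.082 to 1.05, Jag2 from -0.096 to 0.51 and Hes1 from -0.021 to 0.22. The causes were not tested. Over the 22 alternatives Dll1 (-0.94 to -0.35), Notch3 (-0.80 to -0.25), Hey1 (-2.46 to -0.51), Heyl (-3.94 to -0.68) and Rbpj (0.15 to 0.31) kept their direction, and the adjusted p of Dll1 ran from 0.341 to 0.823. Scaling by library totals moved the median log2 fold change of all genes to 0.055. The 95% intervals of Jag1, Hey1 and Heyl were the widest of the 10.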
